A study of Homo sapiens with 3 samples.

Results

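The miRNA cluster of miR-183, miR-96 and miR-182 was followed in small RNA libraries from 3 strains of HCCLM3, a cell line of human hepatocellular carcinoma (HCC). Its members were the rows named hsa-miR-183, hsa-miR-96 or hsa-miR-182 with any arm suffix, which gave 6 mature miRNAs from 3 hairpins among 1921 listed names. An arm is the strand cut from the 5′ (5p) or the 3′ (3p) side of a hairpin. The strains were the parent line, labelled as low in metastasis, subclone1, labelled as more metastatic with a preference for lung, and subclone2, labelled as metastasizing to lung as well as celiac lymph nodes. All were grown in DMEM, and the labels name no treatment. The study describes its parental line as a fluorescent derivative of HCCLM3 with high metastatic potential, so "low" is used only as the label of that library. The study first derived lines from lung and lymph node metastases, and then monoclonal lines from those. It does not state which of its derived lines were sequenced as subclone1 and subclone2. Each strain had 1 library, so no difference between strains could be tested against a replicate, and no p-value is given.

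The hairpins of this cluster are cut from a shared primary transcript, which Drosha and then Dicer process into short duplexes. One strand of each duplex is loaded into Argonaute and pairs with target mRNAs mainly through its seed, the bases from position 2 to 8. The cluster is best known from sensory organs, where it is abundant in photoreceptors and hair cells. It is also often raised in carcinomas, including HCC, where FOXO transcription factors are among the targets described for its members.

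In the GENCODE annotation (GRCh38), the hairpins lay on the minus strand of chromosome 7, within chr7:129770383-129775014, a span of 4632 bases. Along the transcribed strand MIR183 (chr7:129774905-129775014) came first. MIR96 (chr7:129774692-129774769) followed after 135 bases and MIR182 (chr7:129770383-129770492) after a further 4199 bases. None of the hairpins overlapped another annotated gene. The nearest protein-coding genes were NRF1, 13300 bases away, and UBE2H, 55717 bases away. The count tables held no coordinates, so these positions come from the annotation alone.

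**Figure D1:**
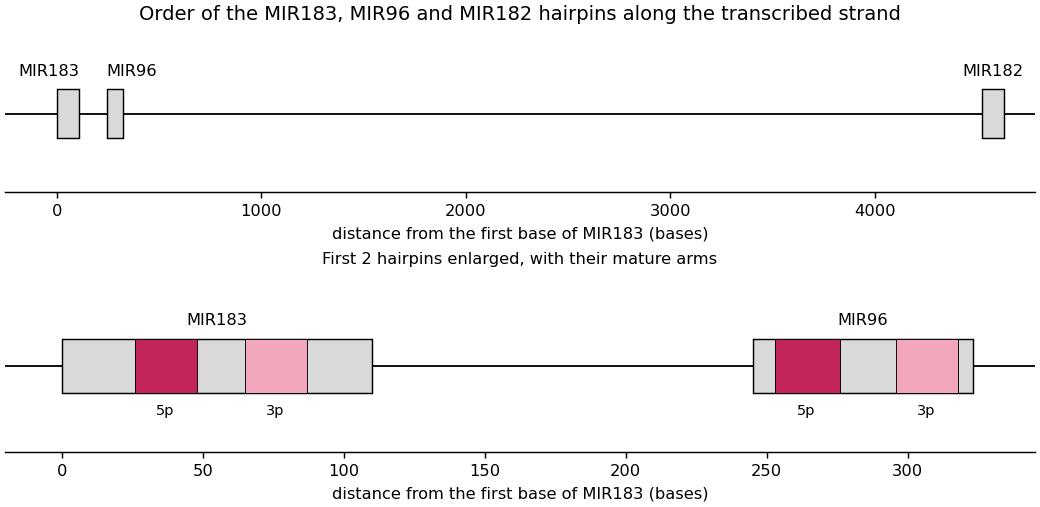
Hairpins of the cluster (grey boxes) drawn to scale along the transcribed strand, with the distance in bases from the first base of MIR183 on the horizontal axis. The lower panel enlarges MIR183 and MIR96 with their 5p arms (dark) and 3p arms (light); MIR96 starts 245 bases and MIR182 4522 bases after the start of MIR183.

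The mature sequences of the 5p arms are shown because the seed sets which targets they share. RefSeq held all 6 arms of the cluster (GRCh38.p14). The seed is in capitals. hsa-miR-1271-5p, from chromosome 5 (chr5:176367960-176367981, plus strand), is added as the only other human miRNA of the RefSeq table with the seed of one of the members:
hsa-miR-183-5p: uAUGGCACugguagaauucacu
hsa-miR-96-5p: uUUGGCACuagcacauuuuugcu
hsa-miR-182-5p: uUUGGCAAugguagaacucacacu
hsa-miR-1271-5p: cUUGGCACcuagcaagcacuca

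The seeds were related but not identical. With positions counted from 1 at the 5′ end, hsa-miR-96-5p differed from hsa-miR-182-5p in the seed by C8A and hsa-miR-183-5p from hsa-miR-96-5p by A2U. hsa-miR-183-5p and hsa-miR-182-5p differed at both places (A2U and C8A), although they were the closest pair over their whole length, with 18 of 22 positions the same. Their longest common run was UGGUAGAA, behind the seed. hsa-miR-96-5p shared 13 of 22 positions with hsa-miR-183-5p and 12 of 23 with hsa-miR-182-5p. The mRNA sites that pair with these seeds read UUGCCAA for hsa-miR-182-5p, GUGCCAA for hsa-miR-96-5p and GUGCCAU for hsa-miR-183-5p. The longest run shared by any arm of the cluster with another listed miRNA of known sequence was 10 bases, and 8 bases for hsa-miR-182-5p and hsa-miR-96-5p.

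All 3 5p arms carried UGGCA at positions 3 to 7. Of 2370 human mature sequences in RefSeq, 10 had these bases there (0.422%), and 9 of them were listed in the tables. Of the reads of these 9 names the cluster supplied 98.5% in parent cells, and 97.5% and 98.9% in the respective subclones. hsa-miR-1271-5p, which has the same seed as hsa-miR-96-5p, had 0 counts in each library. Its absence of reads still allows levels up to 0.380 (parent), 0.840 (subclone1) and 0.657 (subclone2) CPM, which stands for counts per 1000000 counts of the library. This limit is set by 3 counts of the total. Outside the cluster, hsa-miR-3128 had the most reads with this core, 30, 12 and 6 counts, and was named after its values were seen.

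The libraries held 7902438 counts (parent), 3570864 (subclone1) and 4568075 (subclone2). Intervals are exact 95% intervals that cover counting error only, because each strain had 1 library. The reads carry no molecular identifiers, so copies of 1 molecule were counted separately and the intervals may be too narrow. The hepatocyte marker hsa-miR-122-5p was low, between 3.94 and 6.71 CPM, and hsa-miR-885-5p had 0 counts in each library. The 5 epithelial markers, the miR-200 family arms, summed to 75.5 to 132 CPM, with 3 above the minimum level. The 6 blood markers summed to 0.633 to 1.68 CPM, with hsa-miR-142-3p and hsa-miR-144-3p at 0, and the 2 endothelial markers to 0.438 to 2.24 CPM. The 4 muscle markers summed to 7.59 to 23.2 CPM, highest in subclone1 and nearly all from hsa-miR-1, with hsa-miR-133b at 0. The 3 neural markers summed to 1206 to 1946 CPM, nearly all from hsa-miR-128, which other tissues also express, while hsa-miR-124-3p had at most 1 count in a library. The part of these differences in the results below was not tested.

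hsa-miR-182-5p was the leading member in every library. Its counts were 1624 (parent), 531 (subclone1) and 798 (subclone2), or 206 CPM (interval 196 to 216), 149 CPM (136 to 162) and 175 CPM (163 to 187). The parent was highest and subclone1 lowest, and these intervals did not overlap. Separation beyond counting error was common: in the comparisons below, the interval of the ratio excluded 1 for 58.9% to 69.3% of the kept miRNAs. By read count it ranked 67th of 743 miRNAs detected in parent cells, and 79th of 670 and 71st of 675 in the subclones.

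hsa-miR-96-5p had 355, 132 and 180 counts, or 44.9 CPM (40.4 to 49.8), 37.0 (30.9 to 43.8) and 39.4 (33.9 to 45.6), in the same order. hsa-miR-183-5p had 343, 123 and 189 counts, or 43.4 CPM (38.9 to 48.2), 34.4 (28.6 to 41.1) and 41.4 (35.7 to 47.7). For both, the parent was highest and subclone1 lowest, but the intervals of the strains overlapped. In bulk RNA, fewer cells that express a miRNA and less of it per cell cannot be told apart.

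The 3p arms were sparse. hsa-miR-183-3p had 63, 27 and 39 counts, or 7.97 CPM (6.13 to 10.2), 7.56 (4.98 to 11.0) and 8.54 (6.07 to 11.7). hsa-miR-182-3p had 9, 2 and 4 counts and hsa-miR-96-3p 2, 0 and 1. None of the 3p arms reached the minimum of a mean of 10 CPM over the libraries, so the 3 5p arms are the members among the 192 miRNAs kept for the comparisons.

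**Figure D2:**
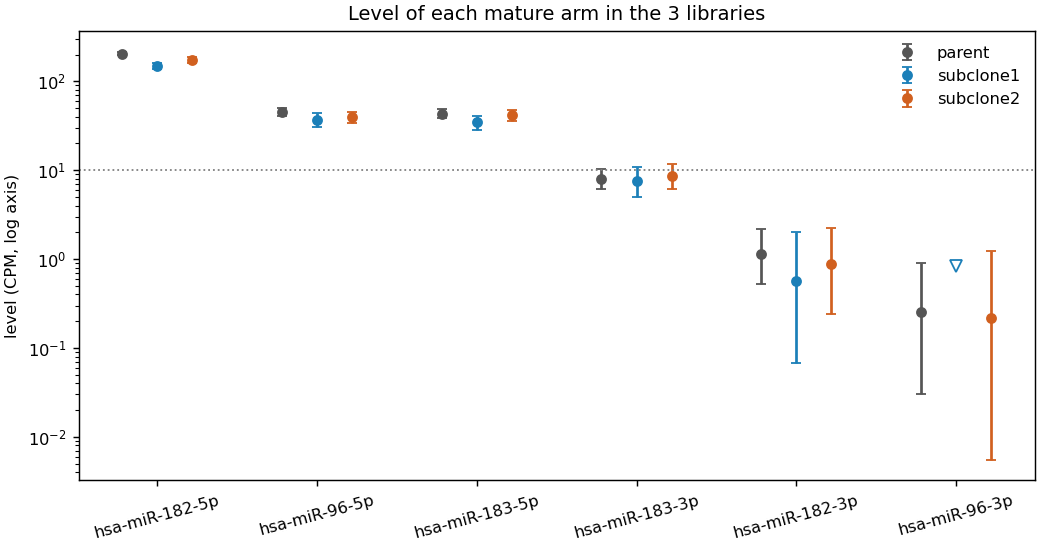
Level of each arm in CPM (log axis) in the parent, subclone1 and subclone2 libraries, with exact 95% intervals for counting error; the open triangle marks a count of 0 at its limit of 0.840 CPM, and the dotted line is the minimum of 10 CPM. hsa-miR-182-5p stands between 149 and 206 CPM, well above the other 5p arms at 34.4 to 44.9 CPM.

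Summed over all arms, the cluster had 2396, 815 and 1211 counts, which were 0.0303% (parent), 0.0228% (subclone1) and 0.0265% (subclone2) of the libraries. The level was thus 303 CPM (291 to 316), 228 CPM (213 to 244) and 265 CPM (250 to 280). The order of the strains was that of each 5p arm, and the intervals of the sums did not overlap. Those intervals hold for the library total alone. By TMM scaling the log2 ratio of the sum in subclone2 against the parent went from -0.19 to -0.023. Most of the sum was hsa-miR-182-5p. Without it the levels were 97.7 CPM (90.9 to 105), 79.5 (70.6 to 89.3) and 90.4 (81.9 to 99.6), and the interval of subclone2 overlapped both others.

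The first comparison, of subclone1 with the parent, asked whether the cluster differed in the strain with lung preference. A miRNA was called when its ratio was at least 2-fold and the interval of the ratio excluded 1, a rule that compares these libraries and not the conditions. All 3 5p arms were lower in subclone1, and 0 of 3 were called, against 25 of 192 kept miRNAs (13.0%). The log2 ratio was -0.47 (interval -0.61 to -0.32) for hsa-miR-182-5p, which corresponds to 0.724 times the parent level. It was -0.33 (-0.64 to -0.03) for hsa-miR-183-5p and -0.28 (-0.58 to 0.01) for hsa-miR-96-5p. The members' median was -0.33, compared with 0.02 over all kept miRNAs, of which 47.9% were lower. An interval that excluded 1 was found for 2 of the 3 members, but also for 132 of the 192 kept miRNAs (68.8%). For hsa-miR-96-5p it excluded 1 as well under each of the 3 other scalings, with log2 ratios of -0.34 (TMM), -0.31 (median of ratios) and -0.35 (a total that leaves out the 12 leading miRNAs, which were among the 10 most abundant in at least 1 strain). The share of all kept miRNAs with such an interval was not counted under these other scalings. The summed cluster had a log2 ratio of -0.41 (-0.53 to -0.29).

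The same question was put to subclone2, the strain with dual tropism. Against the parent, 0 of 3 members were called, with 20 of 192 kept miRNAs (10.4%) as background. The log2 ratio was -0.23 (-0.36 to -0.11) for hsa-miR-182-5p and -0.19 (-0.46 to 0.07) for hsa-miR-96-5p. For hsa-miR-183-5p it was -0.07 (-0.33 to 0.19), and its sign turned under the other scalings, with 0.10 (TMM), 0.07 (median of ratios) and 0.0046 (total without the 12 leading miRNAs). For hsa-miR-182-5p these scalings gave -0.063, -0.092 and -0.16, in the same order. By the library total, an interval that excluded 1 was found for 1 of the 3 members, but also for 133 of the 192 kept miRNAs (69.3%). The median of all kept miRNAs was itself -0.14, with 63.0% of them lower, and TMM scaling moved it by 0.17. Relative to that median, the members stood at -0.09 (hsa-miR-182-5p), -0.05 (hsa-miR-96-5p) and 0.07 (hsa-miR-183-5p). For the summed cluster the log2 ratio was -0.19 (-0.29 to -0.09), or -0.05 relative to the median. By the other scalings the summed log2 ratio was -0.023 (TMM), -0.051 (median of ratios) and -0.12 (total without the 12 leading miRNAs), so its size depended on the scaling. Under TMM and median of ratios the interval excluded 1 for 0 of the 3 members, but the share of all kept miRNAs was not counted under these scalings. Because the size of the sum depended on the scaling, its unchanged sign does not show a lower level in subclone2.

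Between the subclones, all 3 members were higher in subclone2 and 0 of 3 were called, against 11 of 192 (5.73%). The log2 ratio was 0.26 (-0.07 to 0.60) for hsa-miR-183-5p, 0.23 (0.07 to 0.39) for hsa-miR-182-5p and 0.09 (-0.24 to 0.43) for hsa-miR-96-5p. The interval excluded 1 for 1 of the 3 members and for 113 of the 192 kept miRNAs (58.9%). Under each of the 3 other scalings it excluded 1 for 2 of the 3 members, with the share of all kept miRNAs not counted. The median over the kept miRNAs was -0.16, with 33.9% of them higher, and TMM moved it by 0.23. Relative to that median the members stood at 0.42, 0.39 and 0.25. The summed cluster had a log2 ratio of 0.22 (0.09 to 0.35). All 3 members were higher in subclone2 under each of the 4 scalings. The 3 comparisons share libraries in pairs and are not independent of each other.

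**Figure D3:**
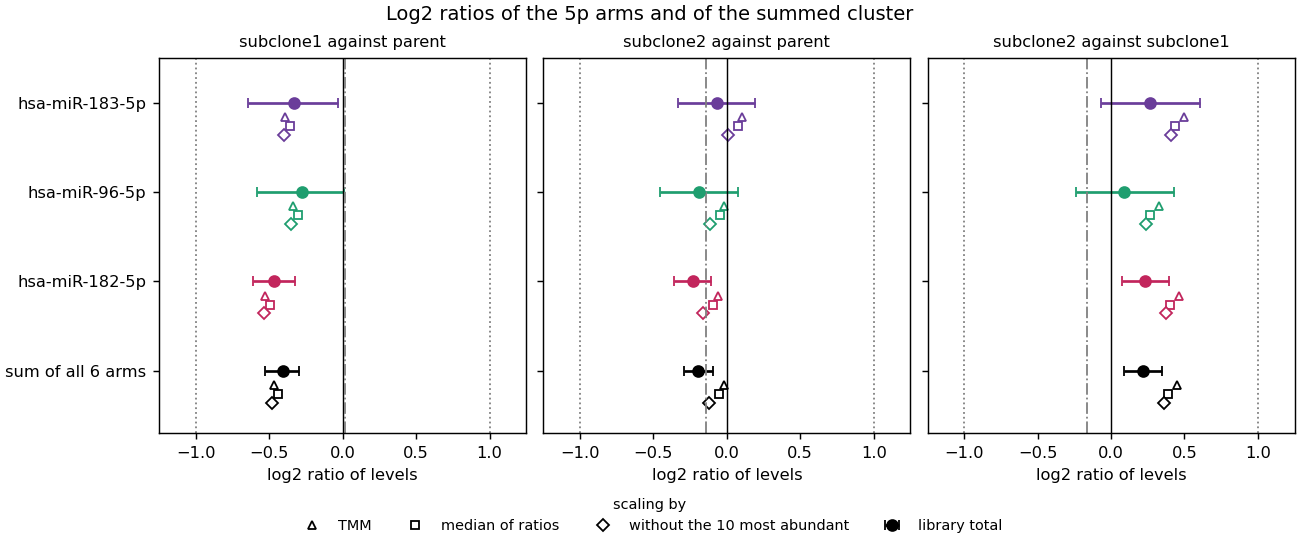
Log2 ratio (horizontal axis) of each 5p arm and of the sum of all 6 arms in the 3 comparisons; filled circles with exact 95% intervals are scaled to the library total, open symbols to the other totals, the dash-dotted line is the median of the 192 kept miRNAs and dotted lines mark 2-fold. The members lie below 0 in subclone1 under each scaling, close to the median of all miRNAs in subclone2 against the parent, and above it in subclone2 against subclone1.

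**Figure D4:**
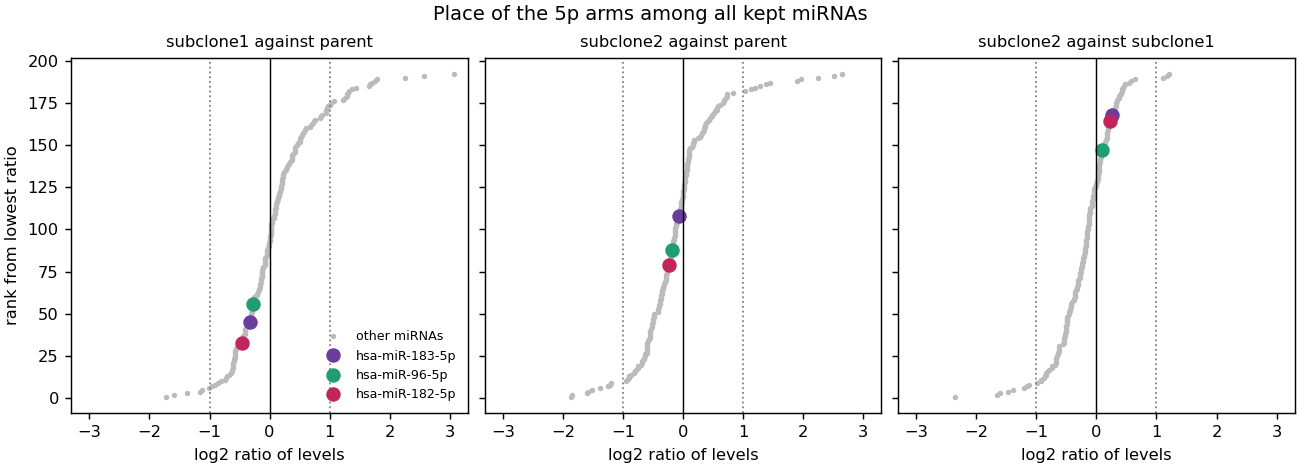
All 192 kept miRNAs ranked by log2 ratio (horizontal axis) in each comparison, with the 5p arms of the cluster in colour and dotted lines at 2-fold. The members hold ranks 33 to 56 from the lowest in subclone1 against the parent, 79 to 108 in subclone2 against the parent and 147 to 168 in subclone2 against subclone1.

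The composition of the cluster varied little between the strains, and shares do not depend on the scaling. Of the 5p reads, hsa-miR-182-5p made up 69.9% (68.0 to 71.8) in parent cells, 67.6% (64.2 to 70.8) in those of subclone1 and 68.4% (65.6 to 71.0) in those of subclone2. hsa-miR-96-5p made up 15.3%, 16.8% and 15.4%, and hsa-miR-183-5p 14.8%, 15.6% and 16.2%. The level of hsa-miR-96-5p could not be placed above or below that of hsa-miR-183-5p. Its share of the reads of these 2 was 50.9% (47.1 to 54.6), 51.8% (45.4 to 58.0) and 48.8% (43.6 to 54.0) for parent, subclone1 and subclone2. For each read of hsa-miR-96-5p there were 4.57 (parent), 4.02 (subclone1) and 4.43 (subclone2) reads of hsa-miR-182-5p, and for each read of hsa-miR-183-5p there were 4.73, 4.32 and 4.22. Adapter ligation favours some RNA ends, so these ratios describe reads rather than molecules.

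Each pair of members was also compared between libraries by the ratio of their read ratios. The 9 values ranged from 0.907 to 1.14, and 0 of the 9 intervals excluded 1. The widest departure was hsa-miR-96-5p relative to hsa-miR-182-5p in subclone1 against the parent, 1.14 (0.903 to 1.43). Unequal change within the cluster was thus not detectable at this depth, and the intervals still allow ratios up to 1.57, the upper bound for hsa-miR-183-5p relative to hsa-miR-96-5p in subclone2 against subclone1.

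The hairpins differed in the use of their arms. The MIR182 and MIR96 hairpins are shown with both mature arms in capitals, the 5p arm first, since their 3p arms were almost unread:
MIR182: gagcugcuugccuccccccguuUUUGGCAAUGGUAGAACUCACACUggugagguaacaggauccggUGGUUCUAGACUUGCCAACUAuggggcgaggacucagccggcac
MIR96: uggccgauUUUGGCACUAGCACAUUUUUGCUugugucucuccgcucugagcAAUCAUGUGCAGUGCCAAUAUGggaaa

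Over the libraries, 0.505% (0.283 to 0.832) of the MIR182 reads and 0.448% (0.0924 to 1.30) of the MIR96 reads came from the 3p arm. For MIR183 this share was 16.5% (13.9 to 19.2). Its 3p arm was:
hsa-miR-183-3p: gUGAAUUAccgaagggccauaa

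By strain, the 3p share of MIR183 was 15.5% (parent, 12.1 to 19.4), 18.0% (subclone1, 12.2 to 25.1) and 17.1% (subclone2, 12.5 to 22.6), and these intervals overlapped. The ratio of hsa-miR-183-3p to hsa-miR-183-5p in subclone1 was 1.19 times (0.698 to 2.0) that in the parent, and 1.12 times (0.705 to 1.77) in subclone2. Among 105 hairpins with both arms listed and at least 1 kept, the lesser arm held a median of 2.32% of the reads. MIR183 ranked 23rd from the highest lesser-arm share, MIR182 69th and MIR96 70th.

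**Figure D5:**
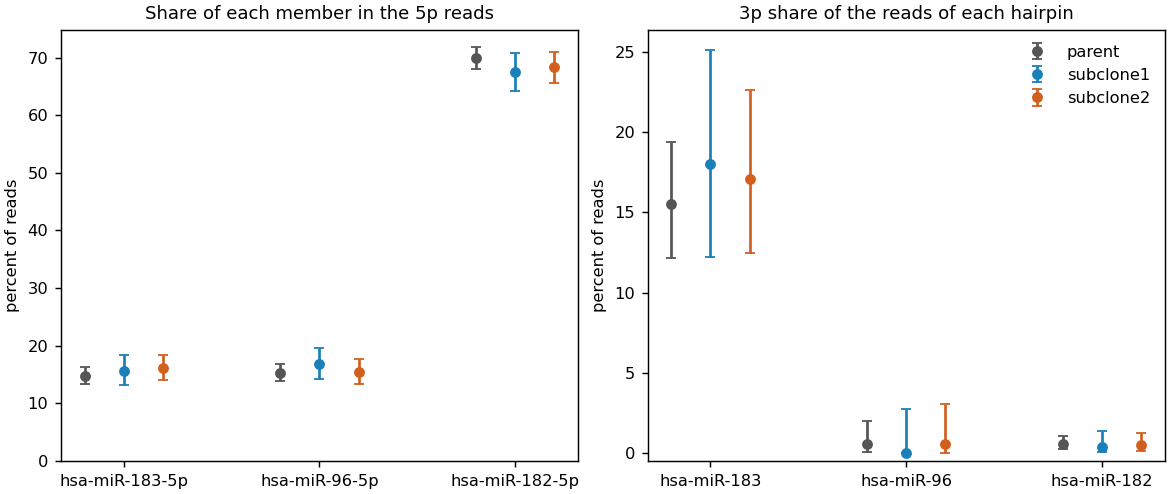
Percent of the 5p reads held by each member (left) and percent of each hairpin's reads from the 3p arm (right) in the 3 libraries, with exact 95% intervals for counting error. The shares of a member overlap between strains. The 3p arm holds 15.5 to 18.0% of the reads of hsa-miR-183 and, as point values, under 1% of those of the other 2 hairpins. Their upper bounds reach 3.04%, for hsa-miR-96 in subclone2.

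The cluster was then set beside the miR-200 family, which represses ZEB1 and ZEB2 and marks epithelial cells, and the miR-106b-25 cluster, another polycistron of chromosome 7, related in sequence to miR-17-92. These lists were chosen with earlier results known. In subclone1 against the parent, the 3 kept miR-200 arms were all higher, with a median log2 ratio of 0.55, compared with -0.33 for the 3 kept arms of the miR-183 cluster. In subclone2 against the parent the medians were 0.66 and -0.19, and 1 of the 3 miR-200 arms was called higher, against 11 called higher and 9 lower among the 192 kept miRNAs (10.4% in all). The median over all kept miRNAs was 0.02 in the first of these comparisons and -0.14 in the second. Below the minimum level, with at most 19 counts in a library, the family did not share 1 direction in subclone1. hsa-miR-141-3p had 2.28, 1.12 and 3.28 CPM (parent, subclone1, subclone2), and hsa-miR-429 had 2.40, 3.36 and 3.72. Ratios of reads between these groups need no scaling. For each miR-200 family read there were 3.81 reads of the miR-183 cluster (parent, 3.49 to 4.17), 1.91 (subclone1, 1.70 to 2.15) and 1.87 (subclone2, 1.70 to 2.07). The subclone1 ratio was 0.501 times (0.432 to 0.582) and the subclone2 ratio 0.492 times (0.431 to 0.562) that of the parent, both sharing the parent library. Between the subclones the ratio of ratios was 0.982 (0.842 to 1.15).

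For the 5 kept arms of miR-106b-25 the median log2 ratio against the parent was -0.57 (subclone1) and -0.33 (subclone2), and 0 of 5 were called in either, against 13.0% and 10.4% of all kept miRNAs. Their ratios in subclone1 spread over 0.91 on the log2 scale, from -0.63 to 0.28, and included 3p arms. Those of the 3 5p arms of the miR-183 cluster spread over 0.19. The 3 kept miR-200 arms spread over 0.18, so in this comparison a narrow spread was not particular to the miR-183 cluster. In subclone2 against the parent the spread was 0.61 for the miR-200 arms and 0.17 for the miR-183 cluster. Between the subclones these spreads were 0.44 and 0.17. Summed over arms, the log2 ratio of miR-106b-25 against the parent was -0.11 (subclone1) and -0.28 (subclone2). For the miR-183 cluster these sums gave -0.41 and -0.19. The ratios of reads that follow compare sums, not medians over arms. In the parent there were 0.0506 reads of the miR-183 cluster per read of miR-106b-25. The ratio was 0.810 times (0.746 to 0.879) as high in subclone1, and in subclone2 the interval included 1 (1.06, 0.989 to 1.14). Between the subclones it was 1.31 times (1.20 to 1.44) as high in subclone2.

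On chromosome 7, 13 kept miRNAs outside the cluster had a hairpin. The nearest was hsa-miR-335-5p, 721 kb away, with 13.9 CPM in the parent and log2 ratios of -0.58 in subclone1 and -0.55 in subclone2. hsa-miR-29a-3p, 1102 kb away, had log2 ratios of 0.12 and 0.0058. hsa-miR-29b-3p, from the adjacent hairpin and a second locus, had 0.02 and -0.23. The next, hsa-miR-4467, lay 27299 kb away and had -0.57 and -0.60. None of these 4 was called in any comparison, and they did not share a direction.

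Finally, the kept miRNAs outside the cluster with the pattern most like that of the summed cluster were sought, by the distance between their pairs of log2 ratios against the parent. This measure rests on 3 libraries and both ratios share the parent. The nearest were hsa-miR-760 (distance 0.10), hsa-miR-99a-5p (0.12), hsa-miR-21-5p (0.13), hsa-miR-548e (0.13) and hsa-miR-186-5p (0.16). They spanned levels from 14.9 CPM for hsa-miR-548e to 39672 CPM for hsa-miR-21-5p in the parent. For hsa-miR-96-5p, 5 miRNAs outside the cluster lay closer than hsa-miR-183-5p and 12 closer than hsa-miR-182-5p, so distances of this size were also found between miRNAs of different transcripts. For hsa-miR-182-5p the nearest kept miRNA was hsa-let-7g-5p (distance 0.12, named after its values were seen), ahead of both other members.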

How the data were processed

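Total RNA of cultured cells was taken with Trizol, and 1 ug entered the TruSeq Small RNA kit. The authors deposited raw read counts per mature miRNA name, unscaled. The submitters' processing notes name hg19 and CASAVA 1.4, without their role. Trimming, aligner, mismatch limit, miRBase release and the treatment of multiply matching reads are not given in the sources used here, so reads of related miRNAs could have been assigned to the wrong name.

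Levels were expressed as CPM of the library total (7902438, 3570864 and 4568075). The comparisons used the 192 miRNAs whose mean reached 10 CPM. Log2 ratios used 0.5 added counts. Intervals are exact 95% Clopper-Pearson intervals for levels and shares, conditional binomial intervals for ratios and conditional intervals for ratios of ratios (scipy 1.17.1). A count of 0 allows 3 counts of the total. With 1 library per group no test was run. The calling rule, at least 2-fold with an interval excluding 1, was applied to the whole table. TMM factors are from edgeR 4.0.16. Positions are from GENCODE 29 (GRCh38) and sequences from RefSeq, in which 1576 of the 1921 names, and all 6 arms of the cluster, were found by exact name.

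Named miRNAs were the arms of the cluster, names sharing a member's seed, the 5 most alike in pattern, the 4 nearest on chromosome 7, marker lists and 2 comparison lists. Members and lists were chosen with earlier results of these data known.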

Additional observations from a re-analysis of the deposited data

How the results depend on the processing

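No paired analysis was possible because there was only 1 library per strain, which also means that none could be left out. The number of members called was 0 in each comparison under all 9 alternatives tried. These were 3 scalings, a pseudocount of 5, a fold threshold of 1.5 or of 4, a ratio whose whole interval lay beyond 2-fold, no minimum level (6 arms) and a minimum of 100 CPM, which left hsa-miR-182-5p alone. Scaling moved the summed cluster. Against the parent, its log2 ratio in subclone2 was -0.19 by the library total, -0.023 by TMM, -0.051 by median of ratios and -0.12, within its counting interval, by the total that leaves out the 12 leading miRNAs (the 10 most abundant of each library). Between the subclones it was 0.22 by the library total, 0.45 by TMM, 0.39 by median of ratios and 0.36 without the 12 leading miRNAs. The sum in subclone1 against the parent stayed within its counting interval under each alternative. Of 36 alternative values of the 9 member ratios, 32 stayed within their counting intervals and 4 moved beyond them, all 4 for hsa-miR-182-5p. The sign changed in 3 of the values, all 3 for hsa-miR-183-5p in subclone2 against the parent. Between the subclones, calls over all kept miRNAs were 3 higher and 8 lower by the library total, and 3 higher and 5 lower by TMM. Depth limits the 3p arms most: hsa-miR-96-3p had 3 counts over all libraries.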
